A study of Mus musculus with 12 samples.

Results

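This account describes 9 mouse complement genes, C1qa, C1ra, C1s1, C4b, C2, C3, Cfb, Serping1 and Cd55, picked by symbol out of 43629 Ensembl gene rows to cover C1, C2 to C4, factor B and regulators. Of the 9 members, 8 had enough counts to be tested and C1qa did not. Polyadenylated RNA was sequenced from cultures of mouse cortical neurons, 6 libraries labelled IFNG and 6 labelled Control. The IFNG cultures were under lasting exposure to interferon-gamma from a lentivirus carrying Ifng, added at day 7 in vitro and left for 10 days. Every sample carries the same protocol text, so what virus, if any, the Control cultures received is not given in the sources used here, nor are the mouse strain, the age at dissection, or whether the libraries of a group are separate cultures. The series asks what continuous interferon-gamma does to neurons.

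Complement is a cascade of proteases and binding proteins that tags surfaces for removal. In the classical pathway the recognition molecule C1q activates the proteases C1r and C1s, which cut C4 and C2 to form a convertase that cleaves C3. The alternative pathway uses factor B in place of C2. C1 inhibitor, the product of Serping1, inactivates C1r and C1s, and CD55 (decay-accelerating factor) takes convertases apart on the cell surface. In the brain, glia make much of the complement, and C1q and C3 are known for tagging synapses for removal by microglia.

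Library totals ran from 13875435 to 34239380 counts in IFNG libraries and from 14408343 to 20299507 counts in Control. Ifng itself lay between 4.98 and 17.9 CPM (counts scaled to a common library size and composition) in IFNG libraries and at no more than 0.170 CPM in Control libraries, so all labels matched its level. Astrocyte markers were higher in IFNG, with 16 of 18 listed genes tested and all 16 called higher. Their summed level was 5639 to 8855 CPM across IFNG, against 3388 to 3801 CPM across Control libraries, and the median log2 fold change of the 16 was 1.08. Of 14 neuron markers 7 were called lower and none higher (summed level 4582 to 5960 CPM across IFNG, against 6301 to 7041 CPM across Control libraries). Complement genes are expressed by several of these cell types, and in a bulk culture a change in the number of cells of a type and a change of RNA per cell cannot be told apart. Of 8 tested fibroblast and mural markers 4 were higher, and of 2 tested endothelial markers 1. The part of these shifts in the values that follow was not tested.

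Of the 8 tested members 7 were higher in IFNG and none lower, against a background of 14.3% of all 15241 tested genes called higher and 9.79% called lower. The exception was Cd55. In 6 of the 8 (C1ra, C1s1, C4b, C2, C3 and Serping1) every IFNG library lay above every Control library, which held for 8.75% of all tested genes. The median log2 fold change over the 8 was 6.06, and over all tested genes -0.02. With library totals that exclude risen genes, a scaling added after the values were seen, calls numbered 2954 higher and 750 lower, against 2184 and 1492 otherwise, and the median over all genes was 0.10, while the same 7 members were called. Calls rest on the quasi-likelihood test of edgeR, with p-values adjusted by Benjamini-Hochberg over all tested genes and a threshold of 0.05. Fold changes are log2 of IFNG over Control with their standard error (SE).

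**Figure D1:**
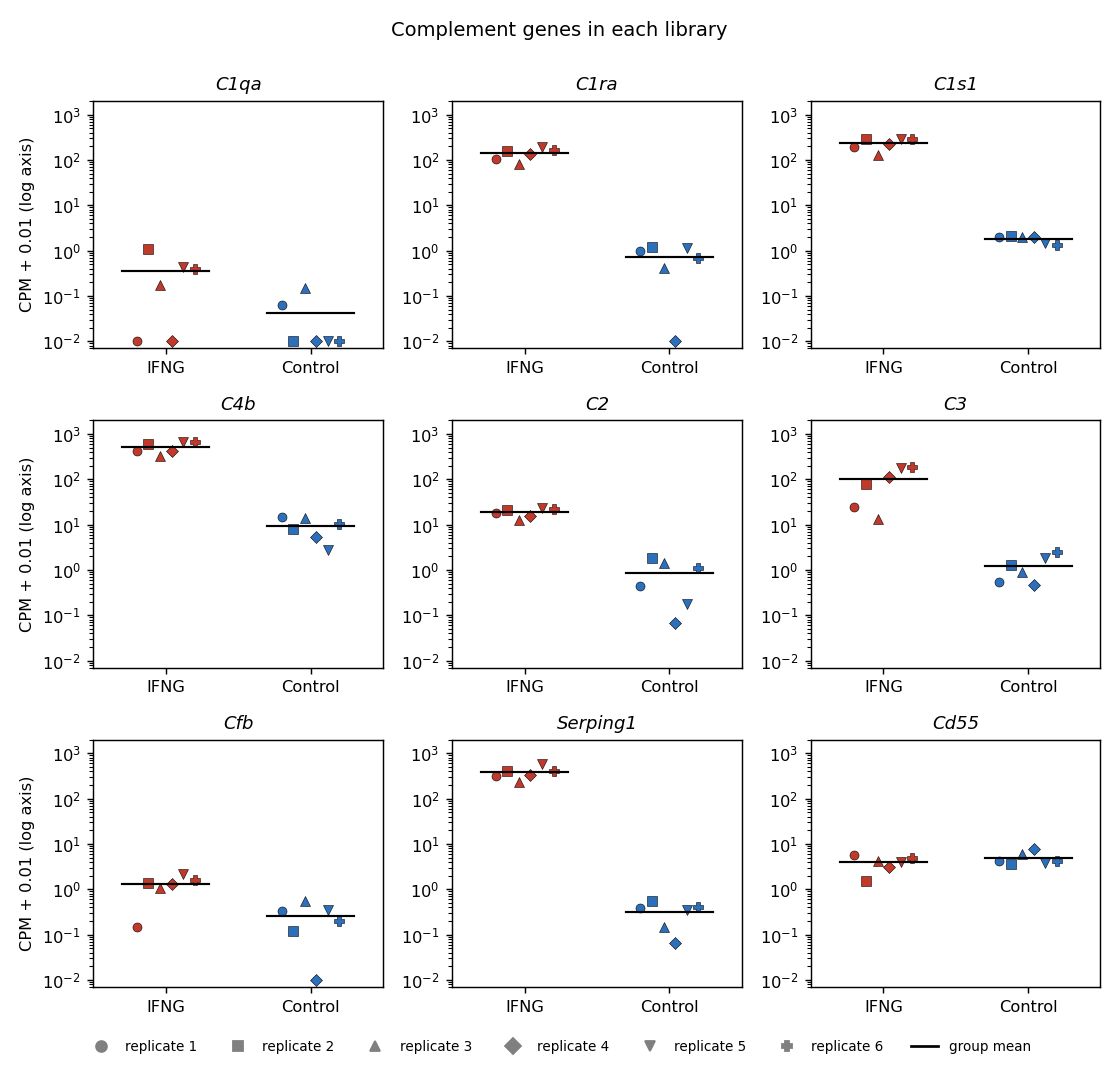
Level of each of the 9 genes in every library, as CPM plus 0.01 on a log axis, IFNG (red) left of Control (blue), with 1 symbol per replicate number and a line at the group mean. Points at 0.01 are libraries with 0 counts. In 6 genes the groups are far apart, the Cd55 groups overlap, and C1qa sits near the detection limit.

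The C1 proteases stood among the strongly changed genes. C1ra, the gene of the protease that C1q activates first, had a lowest, median and highest level of 81.3, 149 and 194 CPM in IFNG libraries, against 0, 0.814 and 1.203 CPM in Control libraries. Its log2 fold change was 7.55 ± 0.33 (SE; n = 6 each, edgeR adjusted p = 2.64e-13), which ranked 84 among all rises. C1s1, the protease that C1r cuts next, had 127, 257 and 294 CPM in IFNG libraries, against 1.31, 1.97 and 2.08 CPM in Control libraries. It rose by 7.04 ± 0.22 (adjusted p = 3.26e-15). The groups were separate for both genes, IFNG 3 was the lowest IFNG library in both, and Control 4 held no C1ra count while its C1s1 level (1.98 CPM) was that of the other Control libraries.

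C1ra (ENSMUSG00000055172, GRCm38 chromosome 6, 124512405 to 124523443, plus strand) and C1s1 (ENSMUSG00000038521, 124530345 to 124542359, minus strand) face each other tail to tail with 6901 bases between them. Each has a close copy nearby. Of the 50-base stretches of C1ra transcripts 48.0% also occur in C1rb, and of those of C1s1 21.9% occur in C1s2, so reads from them may have been divided or dropped. C1rb had 66 counts over the IFNG libraries and 0 over the Control libraries. With Control set at an assumed floor of 3 counts over the group, the ratio per total would be 18.6. The exact 95% interval of the ratio per total has a lower limit of 14.7. C1s2 averaged 2.15 ± 1.04 CPM across IFNG, against 1.27 ± 0.434 CPM across Control libraries (SD, n = 6 each; adjusted p = 0.153). With each copy added to its partner, C1ra (7.56) and C1s1 (6.28) were still called higher.

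The table of RefSeq promoters (GRCm38.p6) held windows for 4 of the 9 members, C1ra, C1s1, C3 and Cd55, which are shown because the first 3 rose together and Cd55 did not. The 250 bases before each start are printed 5′ to 3′ in lower case.
C1ra, chr6:124512371-124512620, plus strand: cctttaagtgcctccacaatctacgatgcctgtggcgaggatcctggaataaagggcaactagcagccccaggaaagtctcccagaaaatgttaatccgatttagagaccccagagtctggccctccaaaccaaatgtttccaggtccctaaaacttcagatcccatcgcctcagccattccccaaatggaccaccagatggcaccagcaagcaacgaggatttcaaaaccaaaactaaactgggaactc
C1s1, chr6:124542322-124542571, minus strand: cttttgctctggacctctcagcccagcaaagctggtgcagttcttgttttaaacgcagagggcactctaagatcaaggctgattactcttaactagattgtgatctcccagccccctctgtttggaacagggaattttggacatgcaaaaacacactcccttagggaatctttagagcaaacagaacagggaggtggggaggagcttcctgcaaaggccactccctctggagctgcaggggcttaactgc
C3, chr17:57228137-57228386, minus strand: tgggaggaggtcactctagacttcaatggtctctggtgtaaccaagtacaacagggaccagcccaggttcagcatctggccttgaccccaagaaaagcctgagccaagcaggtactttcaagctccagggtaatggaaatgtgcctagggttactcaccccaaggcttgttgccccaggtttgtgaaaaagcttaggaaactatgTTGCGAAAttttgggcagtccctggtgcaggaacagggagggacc
Cd55, chr1:130462745-130462994, minus strand: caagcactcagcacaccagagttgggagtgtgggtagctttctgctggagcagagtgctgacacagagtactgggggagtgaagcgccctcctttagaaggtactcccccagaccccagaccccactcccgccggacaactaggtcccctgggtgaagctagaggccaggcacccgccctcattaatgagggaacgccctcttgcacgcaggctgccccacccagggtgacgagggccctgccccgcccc
Capitals mark the letters TTGCNNAA or TTNNGCAA, a C/EBP-type motif that 10.8% of 32851 promoter windows of 300 bases hold on either strand. It occurs in C3 from 45 to 38 bases before the start (TTGCGAAA). In C1ra it occurs after the start, from 17 to 24 bases on, and in C1s1 at positions -242 to -235 from the second RefSeq start (TTAGGCAA), which lies upstream of the one printed. The interferon-stimulated response element, searched as GAAA, any 2 bases and GAAA on both strands and present in 3.44% of windows, was in none of the 4 genes' windows, including that of the upstream C1s1 start. A match describes letters only, and the motifs were chosen with these results known.

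C1qa encodes a chain of C1q, the recognition molecule, and is a gene of microglia and macrophages in the brain. It was near the detection limit. It had 0, 36, 3, 0, 10 and 8 counts in IFNG replicates 1 to 6, against 1, 0, 2, 0, 0 and 0 in Control replicates 1 to 6. The sum was 57 counts in IFNG (exact 95% Poisson interval 43.2 to 73.8, counting error only) and 3 counts in Control (0.619 to 8.77). The ratio per total was 16.0, with an exact 95% interval of 5.22 to 80.0, and 8.11 (2.42 to 42.5) without IFNG 2, which held most of the counts. The groups overlapped. Tested without any filter for low counts, the gene did not pass (log2 fold change 3.33 ± 1.24, edgeR adjusted p = 0.0683). Its partner chains did not separate the groups, with 28 counts of C1qb in IFNG and 20 in Control, and 26 counts of C1qc in IFNG and 11 in Control. Other microglial genes were as scarce. Cx3cr1 had 10 counts in IFNG and 22 in Control, Tmem119 had 3 in IFNG and 0 in Control, and Siglech had 1 in IFNG and 26 in Control. Of 20 listed microglial and macrophage markers 6 were tested and 3 were called higher, P2ry12, Sall1 and Olfml3. Their summed level over the 20 was 48.6 to 64.4 CPM across IFNG, against 34.9 to 44.6 CPM across Control libraries, none of the 20 was at 0 in all libraries, and their part in the C1qa counts was not tested.

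C4b, the gene of complement C4, was the most abundant member by CPM in both groups. It had a lowest, median and highest level of 321, 522 and 673 CPM in IFNG libraries, against 2.77, 9.33 and 14.9 CPM in Control libraries. All IFNG libraries lay above all Control libraries, and Control 5 was the lowest. The log2 fold change was 5.81 ± 0.32 (edgeR adjusted p = 1.67e-11), and 5.12 ± 0.28 with its copy C4a added (adjusted p = 1.66e-11). The copy C4a, in which 34.6% of the 50-base stretches of C4b transcripts also occur, averaged 8.32 ± 1.83 CPM across IFNG, against 6.01 ± 2.33 CPM across Control libraries (SD, n = 6 each; adjusted p = 0.161), and the groups overlapped. Without Control 3 it passed, at 0.66 ± 0.23 (edgeR adjusted p = 0.0498).

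C2 encodes the protease that joins C4 in the classical convertase. Its lowest, median and highest levels were 12.7, 19.7 and 23.8 CPM in IFNG libraries, against 0.0565, 0.768 and 1.86 CPM in Control libraries. It rose by 4.48 ± 0.40 (adjusted p = 3.81e-08) with separate groups. The Control libraries spread widely, with 1 count in Control 4, 3 in Control 5 and 34 in Control 2.

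C3 encodes the protein on which both pathways meet. The IFNG libraries had 25.0, 78.0, 13.003, 114, 177 and 189 CPM in replicates 1 to 6, and the Control libraries 0.528, 1.26, 0.887, 0.452, 1.81 and 2.42 CPM. The groups were separate, but IFNG libraries differed from one another 14.5-fold, with IFNG 1 and IFNG 3 low, whereas C1ra, C1s1, C4b, C2 and Serping1 each varied by 2.42-fold or less. Cfb, at far fewer counts, varied 15.8-fold and Cd55 3.84-fold. The coefficient of variation among IFNG libraries was 74.8% for C3, 52.3% for Cfb, 38.3% for Cd55 and 22.6 to 30.0% for the 5 first-named genes. The log2 fold change was 6.31 ± 0.61 (edgeR adjusted p = 1.22e-07), and between 6.03 and 6.66 when any single library was left out.

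Cfb encodes factor B, the alternative-pathway counterpart of C2, and was low. It had 2, 45, 20, 18, 50 and 33 counts in IFNG replicates 1 to 6, against 6, 2, 8, 0, 6 and 4 in Control replicates 1 to 6. The groups overlapped only through IFNG 1, at 0.136 CPM where the other IFNG libraries had at least 1.08 CPM. The log2 fold change was 2.36 ± 0.62 (adjusted p = 0.00806), the smallest of the 7 that passed. Without IFNG 2, 3, 5 or 6 the gene fell under the filter on low counts and was not tested. In the GENCODE annotation of GRCm38 a readthrough gene, Gm20547, covers 79.5% of the exon bases of Cfb and 42.8% of those of C2 on the same strand, and Gm20547 has a row with 0 counts in all 12 libraries. Whether reads shared with Gm20547 were dropped from Cfb and C2 was not tested, and how such reads were counted is not given in the sources used here.

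The regulators split. Serping1 (ENSMUSG00000023224, chromosome 2, 84765387 to 84775444, minus strand) had a lowest, median and highest level of 235, 373 and 570 CPM in IFNG libraries, against 0.0565, 0.354 and 0.547 CPM in Control libraries. IFNG libraries held 4338 to 13838 counts of it and Control libraries 1 to 10. The log2 fold change of 10.21 ± 0.29 (edgeR adjusted p = 5.68e-16) ranked 18 among all rises. Cd55 (ENSMUSG00000026399, chromosome 1, 130439027 to 130462744, minus strand) had 1.52, 4.09 and 5.84 CPM in IFNG libraries, against 3.61, 4.12 and 7.85 CPM in Control libraries. The groups overlapped, with IFNG 2 lowest and Control 4 highest of all, and the log2 fold change of -0.33 ± 0.29 did not pass (adjusted p = 0.454). This does not show that Cd55 is equal in both groups, as its SE leaves room for a modest change either way. Its copy Cd55b had 0 counts in every library.

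To compare levels between genes, CPM were divided by exon length. Per kilobase, the 9 genes summed to 403 ± 121 CPM per kb in IFNG and 4.16 ± 0.976 CPM per kb in Control libraries (SD, n = 6 each). The order in IFNG libraries was Serping1 (163 ± 49.0 CPM per kb), C4b (91.2 ± 26.0), C1s1 (75.5 ± 21.8), C1ra (46.9, range 27.3 to 65.2), C3 (19.3 ± 14.4) and C2 (4.85 ± 1.10), followed by Cd55, Cfb and C1qa under 1 CPM per kb on average. The ranges of neighbours overlapped except between C2 and Cd55, but within each library the first 5 kept this order in 6 of 6. C3 lay above C2 in 5 of 6. In Control libraries C4b (1.62 ± 0.836 CPM per kb) and Cd55 (1.01 ± 0.347) led, and Serping1 was seventh, at 0.132 ± 0.0771. C1ra, C3, C2 and Serping1 overlapped there. As a share of the 9 genes' summed level, Serping1 took 40.8 ± 2.95% in IFNG and 3.29 ± 2.03% in Control libraries, while Cd55 took 0.225 ± 0.126% in IFNG and 25.7 ± 12.1% in Control libraries. The lower Cd55 share mostly reflects the larger sum, as Cd55 itself averaged 0.810 CPM per kb in IFNG and 1.01 in Control libraries.

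**Figure D2:**
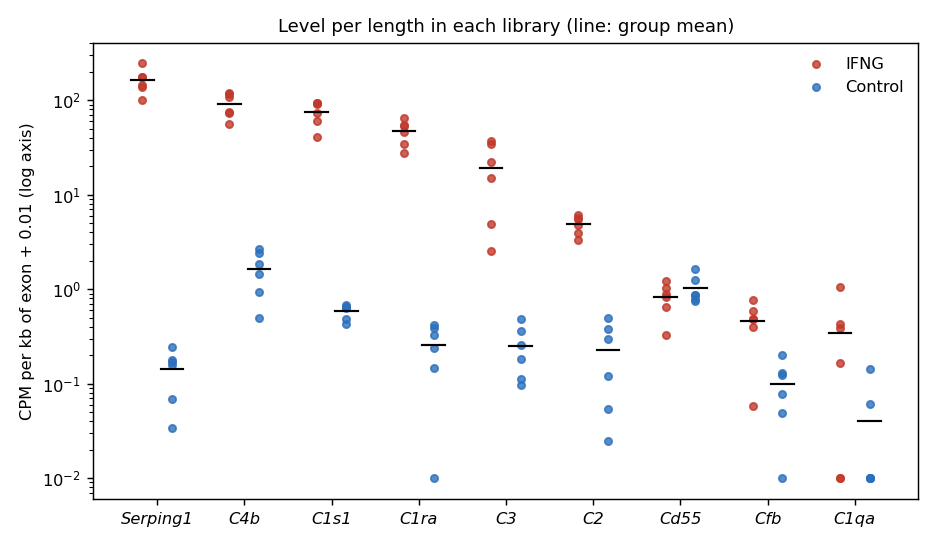
Level of the 9 genes per kilobase of exon in each library (CPM per kb plus 0.01, log axis), ordered by the IFNG mean, with IFNG points (red) left of Control points (blue) and a line at each group mean. Serping1 is first in IFNG at 163 CPM per kb and seventh in Control libraries at 0.132 CPM per kb, and Cd55 is the gene whose Control mean is not below its IFNG mean.

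Ratios of counts within a library, which do not depend on scaling between libraries, were compared by exact two-sided permutation tests over all arrangements of the labels and adjusted over 6 ratios. The inhibitor gene Serping1 relative to its target proteases C1ra plus C1s1 had a mean log2 ratio of 0.02 ± 0.17 in IFNG and -3.16 ± 0.87 in Control libraries (SD, n = 6 each). The groups were separate and the difference was 3.18 (permutation p = 0.00216, the smallest possible, adjusted p = 0.00649), a ratio 9.04-fold higher in IFNG. IFNG libraries thus held 1.01 Serping1 counts per count of both proteases. Cd55 relative to the convertase proteases C2 plus Cfb had a mean log2 ratio of -2.43 ± 0.82 in IFNG and 2.65 ± 2.03 in Control libraries, a difference of -5.07 with separate groups (permutation p = 0.00216, adjusted p = 0.00649). Without Control 4 it was -4.29 (adjusted p = 0.00649). In this ratio C2 and Cfb were called higher by edgeR, and Cd55 was called in neither direction. C3 relative to Cfb differed by 3.62 on the log2 scale, at 6.03 ± 1.30 in IFNG and 2.42 ± 1.46 in Control libraries (permutation p = 0.00433, adjusted p = 0.00866), where the groups overlapped only because Control 4 (4.09) lay above IFNG 3 (3.55).

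The other 3 ratios did not pass. C1ra over C1s1 differed by 1.15 (permutation p = 0.214, adjusted p = 0.257), C4b over C2 by 0.86 (permutation p = 0.171, adjusted p = 0.257) and C4b over C3 by -0.04 (permutation p = 0.959, adjusted p = 0.959). In IFNG libraries the first of these was tight, from -0.89 to -0.60, and C4b over C2 ran from 4.55 to 4.95. C4b over C3 ran from 1.84 to 4.62 in IFNG libraries, with IFNG 4, IFNG 5 and IFNG 6 together at the low end. The Control values rest on few counts. Without Control 4, which held no C1ra count, the difference in C1ra over C1s1 was 0.30 (adjusted p = 0.465). Without Control 5 it was 1.45 (adjusted p = 0.0195), without Control 4 that in C4b over C2 was 1.28 (adjusted p = 0.0260), and with the copies summed that in C1ra over C1s1 was 1.90 (adjusted p = 0.00433).

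**Figure D3:**
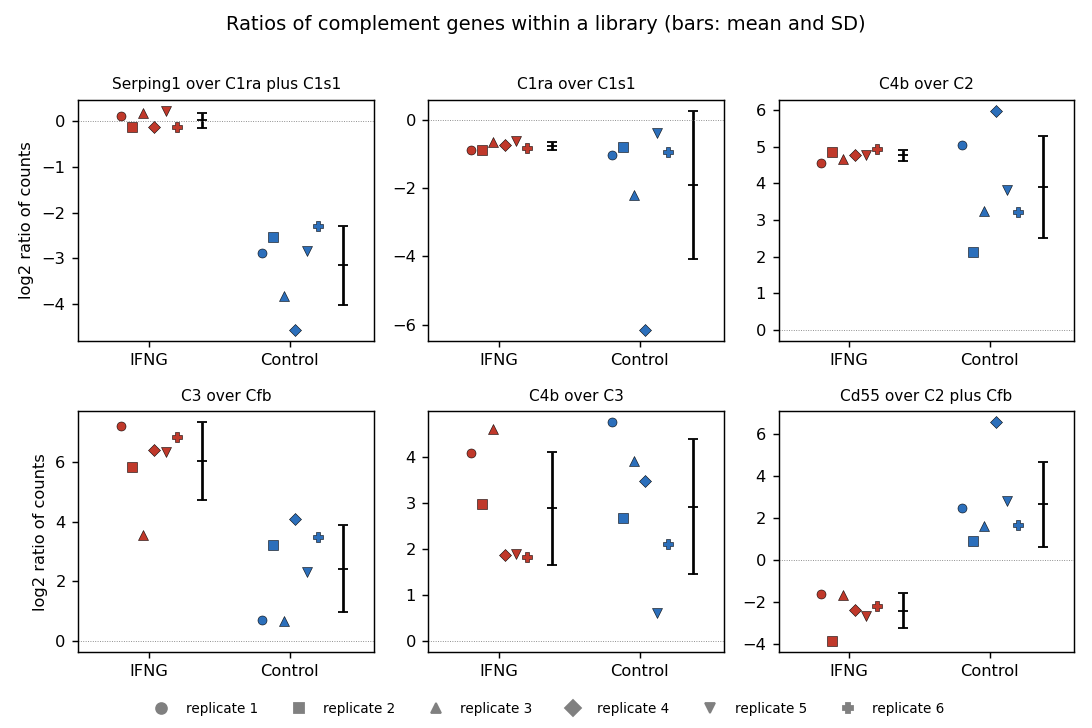
Log2 ratio of counts between complement genes within each library, IFNG (red) left of Control (blue), 1 symbol per replicate number, with the mean and SD beside each group. Serping1 over its protease targets sits at 0.02 in IFNG and -3.16 in Control libraries, and Cd55 over C2 plus Cfb at -2.43 in IFNG and 2.65 in Control libraries.

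Among the 6 IFNG libraries the level of Ifng was set against that of the 8 tested members, and 4 relations passed adjustment by Pearson and none by Spearman. The relation was not computed for genes outside the members, so the share of all genes that would pass is not known. Whether following Ifng is particular to complement genes was therefore not tested. In log2 CPM, Pearson's r with Ifng was 0.96 for C1ra, 0.915 for C1s1, 0.937 for Serping1 and 0.896 for C3 (exact permutation p = 0.00556, 0.00972, 0.0125 and 0.0167, adjusted p = 0.0333 for each over 8 relations). C4b (0.809) and C2 (0.783) did not pass adjustment (exact permutation p = 0.0472 and 0.0583, adjusted p = 0.0756 and 0.0778), nor did Cfb (0.496) or Cd55 (-0.358) (exact permutation p = 0.307 and 0.474, adjusted p = 0.351 and 0.474). Spearman's rho was 0.829, 0.943, 0.943 and 0.6 for the first 4 (exact permutation p = 0.0583, 0.0167, 0.0167 and 0.242), and from -0.657 to 0.771 for the others, and none passed adjustment (lowest adjusted p = 0.0667). Without IFNG 3 and IFNG 5, the libraries with the least and the most Ifng, r was 0.849, 0.742, 0.606 and 0.743 for those 4 genes, over 4 libraries, too few for the test to pass. It was 0.39 for C4b and 0.0109 for C2, and, away from 0, 0.923 for Cfb and -0.788 for Cd55.

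Outside the 9 members, 54 further complement genes were listed and 24 were tested, of which 4 were higher and none lower in edgeR, a share near the 14.3% of all tested genes that were called higher. Their median log2 fold change was 0.15. Colec11, a soluble lectin of the lectin pathway, averaged 5.77 ± 1.14 CPM across IFNG, against 0.296 ± 0.272 CPM across Control libraries (SD, n = 6 each). The groups were separate, and the gene rose by 4.28 ± 0.45 (adjusted p = 4.25e-07). Clu, the gene of clusterin, which binds terminal complexes and is abundant in astrocytes, ran from 607 to 1631 CPM across IFNG, against 199 to 292 CPM across Control libraries, with a log2 fold change of 2.16 ± 0.18 (adjusted p = 1.37e-08). Hc, the gene of C5, rose by 1.39 ± 0.41 (adjusted p = 0.0165) but overlapped between groups at 2.51 ± 0.785 CPM across IFNG, against 0.955 ± 0.640 CPM across Control libraries. Calr, whose product calreticulin binds C1q, rose by 0.53 ± 0.11 (adjusted p = 0.00124).

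By step, 1 of 5 tested initiation genes rose, 0 of 1 in the alternative pathway, 1 of 3 terminal components, 1 of 10 regulators and 1 of 5 receptors and binding proteins. The most abundant that did not pass were Masp1 (0.46 ± 0.20, adjusted p = 0.101), a protease of the lectin pathway that passed without IFNG 3 (0.54, adjusted p = 0.0437), and Cfp (0.23 ± 0.20, adjusted p = 0.449), the gene of properdin. They also included C8g (0.57 ± 0.24, adjusted p = 0.0964), Sez6l (-0.07 ± 0.08, adjusted p = 0.622), a neuronal surface gene, and Lrp1 (0.15 ± 0.20, adjusted p = 0.655). On totals that exclude risen genes both C8g (0.68, edgeR adjusted p = 0.0492) and Masp1 (0.57, adjusted p = 0.04075) passed. Of the 30 that were not tested, C1rl, the C1r-like protease gene just upstream of C1ra, had 239 counts in IFNG and 14 in Control libraries. When low counts were kept in the test it passed at 3.73 ± 0.68 (edgeR adjusted p = 3.64e-05), and so did C1rb at 6.44 ± 1.34 (adjusted p = 0.000360). C3ar1, the receptor of the C3a fragment, had 28 counts in IFNG and 67 in Control libraries and was not tested. The neuronal gene Csmd3, chosen after its values were seen, stood at -0.54 ± 0.21 (adjusted p = 0.0675) and passed as lower without IFNG 1, IFNG 3 or Control 4 and under several other settings.

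**Figure D4:**
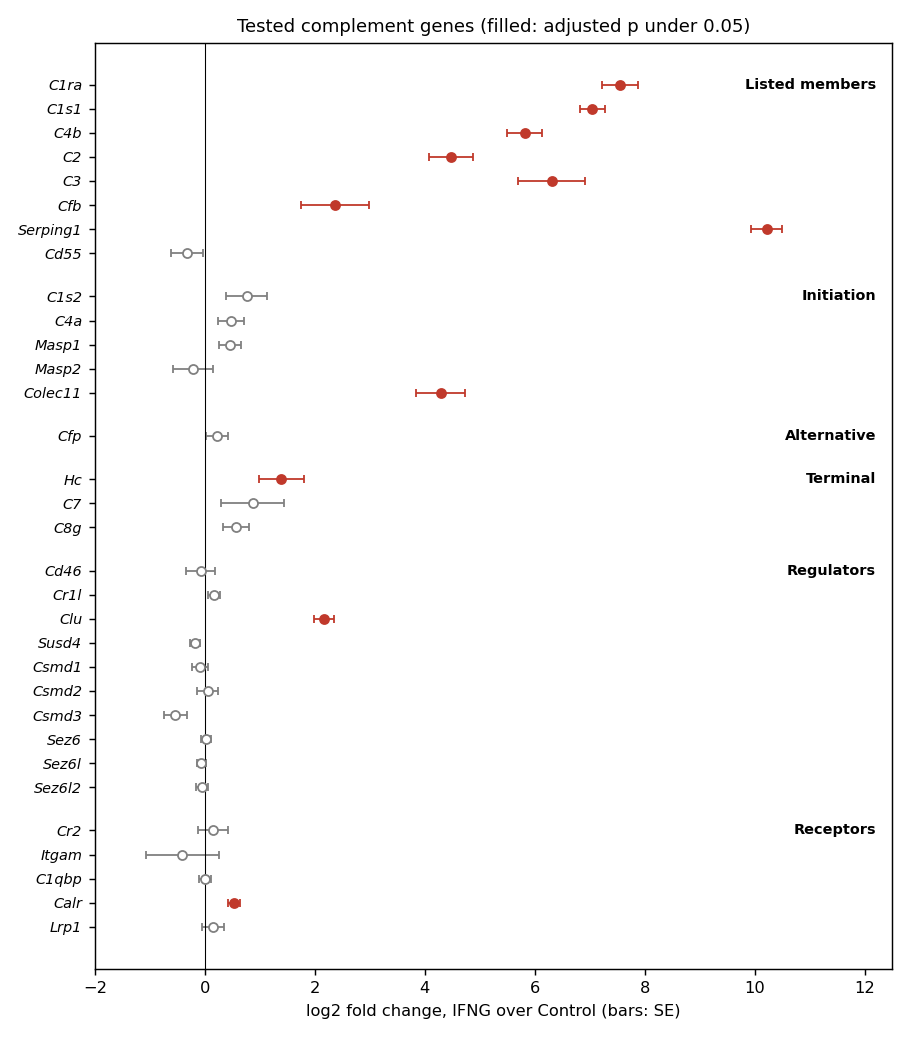
Log2 fold change, IFNG over Control, with SE bars for the 8 tested members and the 24 other tested complement genes, grouped by step (filled red points have an adjusted p under 0.05). The members run from -0.33 for Cd55 to 10.21 for Serping1, and 4 of the 24 other genes are filled.

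Within 100 kb of the loci of the 8 tested members, 32 other protein-coding genes were tested, of which 4 were higher and 2 lower. These shares were near those of all tested genes (14.3% higher and 9.79% lower). The window around Cd55 held 0 of the 32, and the C1qa locus was not searched. C1rl was not among the 32, as its counts were too low for the test. Around C4b, Cfb and C2 on chromosome 17 none of 16 neighbours was called higher, among them Nelfe, next to Cfb, at 0.13 ± 0.13 (edgeR adjusted p = 0.503) and Ehmt2, next to C2, at 0.07 ± 0.10 (adjusted p = 0.669). Beside Serping1 the ISG15-conjugating enzyme gene Ube2l6 rose by 4.31 ± 0.19 (adjusted p = 2.52e-13), and Slc43a1 by 1.96 ± 0.50 (adjusted p = 0.00659). Both tested neighbours of C3, Gpr108 and Trip10, rose by 0.89 ± 0.15 and 1.10 ± 0.30 (adjusted p = 0.000114 and 0.00977). The neighbours were looked up after the members' values were known.

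The search for similar genes covered 10165 others whose log2 CPM averaged 3 or more and that had a symbol other than a Gm or Rik name. Those with the smallest Euclidean distance to a member in centred log2 CPM over the 12 libraries were H2-D1, Ciita and Parp10 for C4b (distances 1.75, 1.87 and 2.07). For Serping1 they were H2-Eb1, Ly6a and Cd74 (2.74, 2.91 and 3.14). For C3 they were Rnf213, Parp10 and Ifit3b (3.28, 3.30 and 3.33), so even the closest gene lay farther from C3 than the closest lay from C4b. The log2 fold changes of these 8 genes ran from 5.64 to 9.75. As the distance spans both groups, a large rise was part of the selection and is not a separate result.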

How the data were processed

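The authors deposited raw counts per Ensembl gene, whole numbers with no normalization, for 12 libraries. STAR 2.4, DESeq2, GRCm39 and mm10 are listed, without roles, per the submitters' processing notes. Which counter, strand mode and annotation were used is not given in the sources used here, so reads of overlapping or near-identical genes are uncertain. Symbols, exon lengths and coordinates came from GENCODE M21 (GRCm38), which matched 42462 of 43629 identifiers, and promoters from RefSeq.

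Differences were tested with edgeR 4.0.16 under R 4.3.3: low counts were removed by filterByExpr, TMM set the scaling, and two-sided quasi-likelihood p-values, fitted without a block, were adjusted by Benjamini-Hochberg (threshold 0.05). SE is the absolute log2 fold change over the square root of F. Ratios used counts plus 0.5. Within groups, each pair of libraries differed beyond sampling noise (chi-square per gene at least 7.04), so all 12 were kept. P-values reflect only how these samples vary, possibly for technical reasons, and intervals cover counting error only. On counts simulated for IFNG against Control with 15128 genes tested, 38% of 100 genes changed 1.5-fold and 71% of 100 changed 2-fold were recovered, with 8 false among 117 calls. The members, lists and naming rule (all members, other complement genes that passed, the most abundant of each step that did not, close copies and the 3 most similar genes) were chosen with earlier results of these data known. Alternatives were other scalings and filters, copies summed, the replicate block, each library left out, and DESeq2 1.42.0.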

Additional observations from a re-analysis of the deposited data

Results flagged for a closer look

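Libraries were checked for standing apart in 30 sets of 6 values (the CPM of 9 genes and 6 log2 ratios, in each group), and chance gives about 1 in 20 such sets. In 3 sets a library stood apart, its gap to the nearest other taking up most of the range. Control 4 had a log2 ratio of C1ra over C1s1 of -6.15, against -2.18 to -0.37 in the other Control libraries, and held no C1ra count. Control 4 also had a log2 ratio of Cd55 over C2 plus Cfb of 6.54, against 0.87 to 2.81 in the others, with 139 counts of Cd55 and 1 of C2. IFNG 3 had a log2 ratio of C3 over Cfb of 3.55, against 5.84 to 7.204 in the other IFNG libraries, with the lowest C3 level of its group.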

How the results depend on the processing

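Every log2 fold change of a tested member kept its direction and its side of the threshold in each alternative that tested it, 163 values in all. The count of members called higher was 7 in most alternatives and 6 with a filter of 1 CPM in 6 samples, where Cfb was not tested, and 6 to 7 with each library left out. The count called lower stayed at 0. Scaling on library totals that leave out risen genes (chosen after seeing the data) left 750 genes lower against 1492. Of the other complement genes 4 were higher, against 4 to 6 with a library left out (6 without Control 3) and 6 with no filter, with DESeq2 and on totals that leave out risen genes. Of them 0 to 1 were lower with a library left out, 1 (Csmd3) with no filter, with the replicate block and with DESeq2, and 2 (Csmd3 and Susd4) with Control 4 and IFNG 5 left out together, chosen after seeing the data. Genes that did not pass and turned direction were Cfp (-0.0646 with that pair left out), Sez6l (0.0436 on totals that leave out risen genes) and Lrp1 (-0.0501 without IFNG 6, and up to 0.256 without IFNG 3). The cause was not tested. Of the ratios, C4b over C3 changed sign with a pseudocount of 2 (0.0728) and ran from -0.50 to 0.33 with a library left out. With a library left out, C1ra over C1s1 ran from 0.30 to 1.45 and C4b over C2 from 0.51 to 1.28, and with the copies summed they were 1.90 and 0.0991. The replicate numbers did not pair the samples: deviations of same-numbered libraries correlated at -0.000964 to 0.124, and 2 of 6 IFNG libraries correlated best with their own number. Under the replicate block the ratios of Serping1 (3.18), C3 over Cfb (3.62) and Cd55 (-5.07) had an adjusted p of 0.0625, the smallest a sign-flip test of 6 pairs gave after adjustment. Without the 2 libraries farthest from the median Ifng level, r was 0.849 for C1ra, 0.742 for C1s1, 0.743 for C3 and 0.606 for Serping1, over 4 libraries. Depth limits C1qa, Cfb and all Control levels under about 1 CPM.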
